A study of Mus musculus with 12 samples.

Results

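The genes of the 26S proteasome were followed in mouse splenic B cells of 2 genotypes, before and after activation. Members were all probe sets annotated to a single gene whose symbol begins with Psma, Psmc, Psmd or Psme and a number, or is one of Psmb1 to Psmb7, without Psmb8, Psmb9 and Psmb10. The rule found 86 of the 45037 probe sets and 40 of the 18193 genes with a probe set of their own. Of the 40 genes, 38 encode proteasome subunits, base assembly chaperones or activators, and the other 2, Psmc3ip and Psme3ip1, only share the start of the symbol. A further probe set carried the symbols Psme2b and Psme2 together and was left out, so Psme2 has no value here.

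The proteasome is the protease that degrades proteins tagged with ubiquitin. Its core particle is a stack of alpha and beta rings, and the proteolytic sites lie on the beta subunits encoded by Psmb5, Psmb6 and Psmb7. The regulatory particle caps the core with a base, which holds the ATPases that unfold substrates (Psmc genes) and ubiquitin receptors, and a lid, which holds the deubiquitinase that removes the ubiquitin chain. Activators of the Psme family can dock on the core in place of the regulatory particle. In B cells the proteasome also supplies peptides for MHC class I and releases NF-kB through degradation of its inhibitors.

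The cells were B cells of the spleen, enriched by removal of CD43-positive cells to a stated purity above 98%. They came from wild type mice or from EFLmDREAM transgenic mice; DREAM is the calcium sensor and transcriptional repressor encoded by Kcnip3. Cells of each genotype were used unstimulated (day 0) or after 2 days with lipopolysaccharide (LPS, 20 µg/ml) and interleukin 4 (IL-4, 10 ng/ml). Each of the 4 groups has 3 arrays of independent replicates. The sources used here do not give the promoter of the transgene, the strain, the age of the mice or whether animals were pooled.

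Neither Kcnip3 probe set was called between the genotypes: the brighter one differed by 0.23 ± 0.12 (SE) at day 0 (limma adjusted p = 0.279) and by 0.03 ± 0.12 at day 2 (adjusted p = 0.976). No source used here says whether they match the RNA of the transgene, so the genotype rests on the labels. Of the B cell markers 6 of 7 measured were lower on day 2 in each genotype, and all 5 measured markers of dividing cells were higher, by 2.64 to 4.01 on the log2 scale in wild type. At day 0 all 8 granulocyte, all 9 monocyte and macrophage and 5 of 6 erythroid markers were higher in the transgenic arrays, with list medians of 3.48, 1.24 and 2.09. On day 2, 3 of the 8 granulocyte markers were higher in the transgenic arrays (list median 0.24). Of the plasma cell markers 5 of 7 were higher at day 0 and 4 of 7 on day 2 (medians 0.62 and 0.55). Of the T and NK cell markers 3 of 9 were higher at day 0 and 0 on day 2. Of the 7 B cell markers 1 was higher and 1 lower at day 0, and 1 higher and 0 lower on day 2. Over all genes 5.45% were called higher at day 0 and 1.24% on day 2. In bulk RNA, fewer cells of a type and less RNA per cell cannot be told apart.

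Values are log2 signals, and a difference of 1 is a doubling. A gene with several probe sets is represented by the one that was brightest on average over the 12 arrays. Because the array medians of the deposited values were 5.97 to 6.05 on day 0 and 5.36 to 5.41 on day 2, the stimulation changes are given on values quantile-normalized over the 12 arrays, which sets a gene against the other genes of its array. The genotype differences are given on the deposited values. Differences are limma estimates ± SE with 3 arrays per group, and a call is an adjusted p under 0.05 over all 45037 probe sets.

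After 2 days with LPS and IL-4, nearly the whole set of proteasome genes was higher in both genotypes. Of the 38 genes, 37 rose and 0 fell in wild type cells, against a background of 36.0% of all genes called higher and 24.0% called lower. In transgenic cells 37 rose and 0 fell, against 35.2% and 23.3% of all genes. The exception was Psma3 in both, and the counts include Psma8 and, in wild type, Psmd10, whose direction turned with the scale; on the deposited values 36 rose in wild type and 37 in transgenic cells. Over the 38 genes the median change was 1.04 (wild type) and 1.11 (transgenic), a level 2.06 and 2.15 times as high, while the median over all genes was 0.080 and 0.083 log2 units. At least a 2-fold rise was seen for 22 genes in wild type and 22 in transgenic cells, of which 20 were shared. The markers of dividing cells were higher in the same arrays. Granulocyte, monocyte and macrophage, and erythroid markers were lower on day 2 in transgenic cells, 8 of 8, 9 of 9 and 5 of 6 of them with list medians of −3.78, −2.19 and −2.64. In wild type cells 4 of 8, 5 of 9 and 3 of 6 were lower, with medians of −0.76, −0.58 and −0.40. The part of these markers in the rise was not tested.

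**Figure D1:**
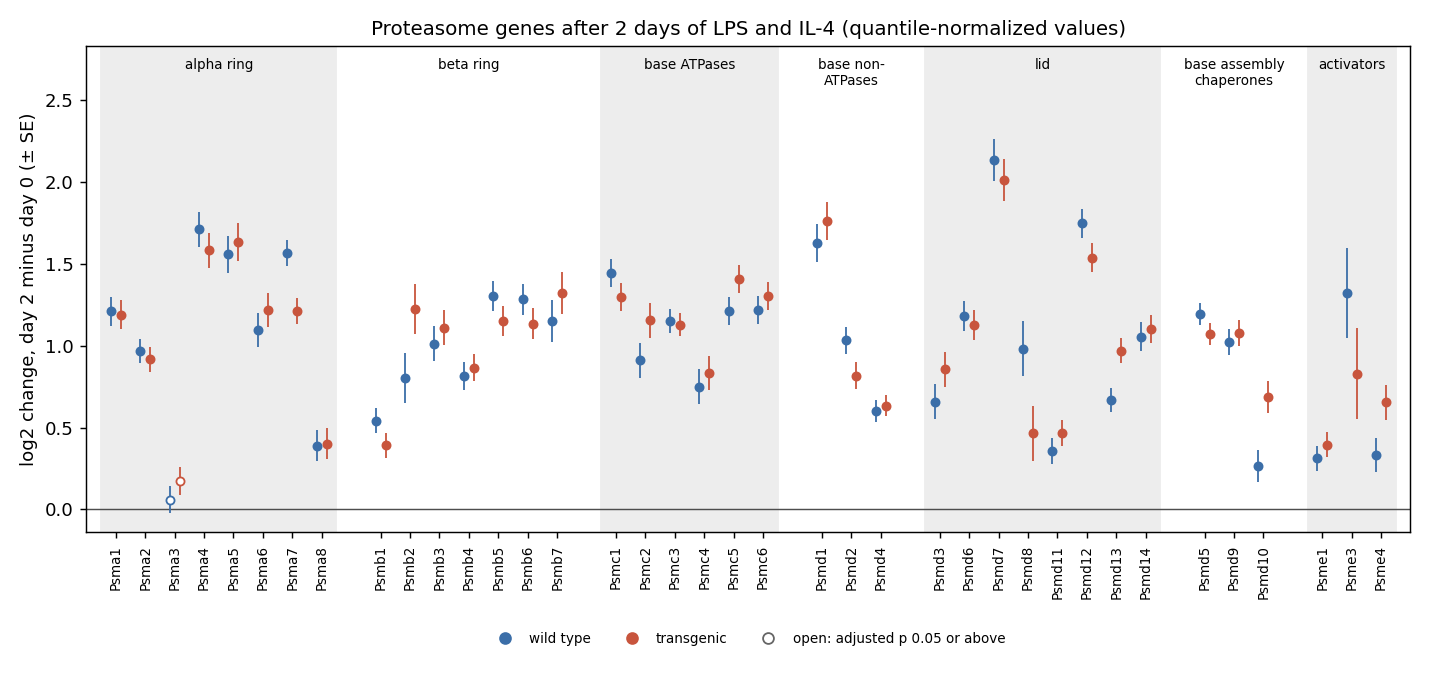
Log2 change from day 0 to day 2 (y axis, ± SE, quantile-normalized values, 3 arrays per group) of each of the 38 proteasome genes (x axis), grouped by the part of the particle, in wild type (blue) and transgenic (red) cells. All points lie above 0, and the open circles are both of Psma3, which missed the threshold.

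The promoters of 31 of the 38 genes were in the RefSeq table of GRCm38.p6, as 33 windows from 250 bases before to 50 after the annotated start. They are shown because the genes rose together: Psmb5 and Psmb6 for the proteolytic core, and Psma4 and Psmd12 for the large rises of ring and lid. Psma3 is shown as the gene with the smallest change on the quantile-normalized values. Capitals mark matches, on either strand, to TGANNNNGC and to CCGGAAG, a core motif of the ETS family. TGANNNNGC is a loose form of the core of the antioxidant response element, to which Nfe2l1 and Nfe2l2 bind with small Maf proteins.
Psmb5 (chr14:54617946-54618245, minus strand): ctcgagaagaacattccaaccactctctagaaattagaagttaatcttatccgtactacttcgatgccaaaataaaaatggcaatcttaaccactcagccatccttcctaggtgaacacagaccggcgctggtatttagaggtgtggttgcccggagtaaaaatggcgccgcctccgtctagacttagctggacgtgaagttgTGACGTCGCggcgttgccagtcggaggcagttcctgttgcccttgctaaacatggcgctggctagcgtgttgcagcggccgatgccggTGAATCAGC
Psmb6 (chr11:70525107-70525406, plus strand): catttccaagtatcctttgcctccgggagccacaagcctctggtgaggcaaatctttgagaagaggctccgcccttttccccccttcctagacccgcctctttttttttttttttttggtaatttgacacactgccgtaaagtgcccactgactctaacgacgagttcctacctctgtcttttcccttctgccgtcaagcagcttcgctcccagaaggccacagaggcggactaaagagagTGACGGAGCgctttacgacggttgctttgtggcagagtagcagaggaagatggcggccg
Psma4 (chr9:54950609-54950908, plus strand): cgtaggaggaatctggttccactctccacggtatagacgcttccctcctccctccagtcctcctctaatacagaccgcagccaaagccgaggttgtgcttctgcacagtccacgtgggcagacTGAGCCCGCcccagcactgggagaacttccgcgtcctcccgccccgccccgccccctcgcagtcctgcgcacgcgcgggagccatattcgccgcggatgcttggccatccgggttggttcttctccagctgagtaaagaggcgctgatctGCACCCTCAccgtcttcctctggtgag
Psmd12 (chr11:107479278-107479577, plus strand): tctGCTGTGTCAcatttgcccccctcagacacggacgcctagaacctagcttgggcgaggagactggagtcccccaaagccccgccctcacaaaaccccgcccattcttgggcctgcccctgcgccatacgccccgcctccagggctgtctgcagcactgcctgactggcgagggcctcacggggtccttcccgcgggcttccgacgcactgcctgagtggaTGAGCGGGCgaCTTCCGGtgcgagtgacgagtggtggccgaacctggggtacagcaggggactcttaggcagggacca
Psma3 (chr12:70974373-70974672, plus strand): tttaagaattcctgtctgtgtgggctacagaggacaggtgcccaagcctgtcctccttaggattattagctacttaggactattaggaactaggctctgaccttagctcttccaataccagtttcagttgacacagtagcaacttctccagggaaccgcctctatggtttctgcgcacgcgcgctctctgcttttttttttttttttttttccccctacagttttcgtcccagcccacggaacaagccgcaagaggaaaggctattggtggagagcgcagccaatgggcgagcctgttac

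The window of Psmb5 held 2 matches to TGANNNNGC, that of Psmb6 held 1 and those of Psma4 and Psmd12 held 2 each. That of Psma3 held 0, and so did those of Psma1, Psma2 and Psmc1, which rose. In all, 17 of the 31 genes had a window with a match. Over the member windows, 54.5% held TGANNNNGC, against 41.3% of all 32851 promoter windows of the table. CCGGAAG stood in 39.4% of the member windows and 8.86% of all. The nuclear respiratory factor motif, searched as GCGCANGCG, stood in 18.2% and 6.25%, the E-box CACGTG in 9.09% and 7.15%, and CCAAT in 36.4% and 37.4%. Matches to TGANNNNGC and CCGGAAG overlapped in 0 of the 33 member windows and in 20 of all 32851. The median GC content was 59.0% in the member windows and 52.7% over all; its part in these shares was not tested. These are matches of letters and not tested sites.

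The beta ring holds the proteolytic sites. Psmb5, which carries the chymotrypsin-like site, read 9.61, 9.76 and 9.87 in the wild type arrays of day 0 and 10.97, 11.10 and 11.09 on day 2. In transgenic cells it read 9.75, 9.91 and 9.97 on day 0 and 10.97, 10.98 and 11.13 on day 2. No array of day 0 reached the lowest array of day 2. The 2 days did not overlap for 38 of the 38 genes in wild type and 37 in transgenic cells, against 64.5% and 67.2% of all genes. Psmb5 is thus 1 of many such genes. Psmb5 rose by 1.30 ± 0.09 in wild type (2.47 times, limma adjusted p = 4.88e-08) and 1.15 ± 0.09 in transgenic cells (2.22 times, adjusted p = 1.78e-07). Psmb6, which carries the caspase-like site, rose by 1.28 and 1.13. Psmb7, which carries the trypsin-like site, rose by 1.15 and 1.32.

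All 7 genes of the beta ring rose, with a median of 1.01 in wild type and 1.13 in transgenic cells. The structural subunit Psmb1 had the smallest rise of the ring, 0.54 ± 0.08 in wild type and 0.39 ± 0.08 in transgenic cells. Psmb2 rose by 0.80 ± 0.15 and 1.22 ± 0.15, with a wide spread on day 0: its wild type arrays read 8.89, 9.15 and 9.52. Psmb4 rose by 0.82 and 0.87 and Psmb3 by 1.01 and 1.11.

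The alpha ring forms the gate through which substrates enter the core. Without Psma8, its median change was 1.21 in each genotype, with 6 of 7 genes called higher in each. Psma4 had the largest rise of the ring in wild type cells. Its arrays read 9.58, 9.94 and 9.85 on day 0 and 11.39, 11.52 and 11.59 on day 2 in wild type cells. In transgenic cells they read 9.78, 10.03 and 9.84, then 11.38, 11.44 and 11.58. The groups of the 2 days did not overlap in either genotype, as for 64.5% of all genes in wild type and 67.2% in transgenic cells. Psma4 rose by 1.71 ± 0.11 in wild type (adjusted p = 1.8e-08) and 1.58 ± 0.11 in transgenic cells (adjusted p = 4.17e-08). Psma5 rose by 1.56 and 1.63, Psma7 by 1.57 and 1.21, and Psma1, Psma2 and Psma6 by 0.92 to 1.22.

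Psma3 stood apart from the ring it belongs to. Its arrays read 12.31, 12.24 and 12.27 on day 0 and 12.34, 12.32 and 12.35 on day 2 in wild type cells, and 12.24, 12.05 and 12.11, then 12.41, 12.38 and 12.13 in transgenic cells. The change was 0.06 ± 0.08 (adjusted p = 0.575) and 0.17 ± 0.08 (adjusted p = 0.102). On the deposited values the change of Psma3 passed the threshold, at 0.28 and 0.40. With array medians subtracted it also passed, at 0.90 and 1.04 (limma adjusted p = 3.17e-07 and 7.23e-08). On the quantile-normalized values it passed in transgenic cells without replicate 3 of day 2, at 0.26 (adjusted p = 0.0143). It had the smallest change of the 38 genes on the quantile-normalized values.

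Psma8 encodes the alpha subunit of the testis proteasome. Its single probe set was dim, at 4.62 to 4.97 on day 0 and 5.13 to 5.35 on day 2 over both genotypes, below the median of every array. It rose by 0.39 and 0.40 on this scale, but on the deposited values its estimate was −0.19 in each genotype and missed the threshold (adjusted p = 0.065 and 0.0652), so its direction rests on the scale.

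The 6 ATPases of the base form the ring that unfolds substrates and opens the gate. All 6 rose, with a median of 1.18 in wild type and 1.23 in transgenic cells. Psmc1 rose by 1.44 ± 0.09 and 1.30 ± 0.09, Psmc5 by 1.21 ± 0.09 and 1.41 ± 0.09, and Psmc6 by 1.22 ± 0.08 and 1.30 ± 0.08. Psmc4 had the smallest rise, 0.75 ± 0.11 and 0.83 ± 0.11. The ATPases lay closer together than the lid genes: their changes ran from 0.75 to 1.44 in wild type cells, and those of the lid from 0.36 to 2.13.

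Of the other base genes, the scaffold gene Psmd1 rose by 1.63 ± 0.12 and 1.76 ± 0.12 and the scaffold gene Psmd2 by 1.03 and 0.82. Psmd4, which encodes a ubiquitin receptor, rose by 0.60 ± 0.07 in wild type and 0.63 ± 0.07 in transgenic cells. Its arrays of day 0 read 10.38 to 10.51 and those of day 2 read 10.99 to 11.14, so a smaller change was still clear of the replicate spread.

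The lid held the largest rise of the 38 genes on the quantile-normalized values in both genotypes. On the deposited values this was so in wild type only: in transgenic cells the lid reached 1.83 and the base scaffold gene Psmd1 1.91. Psmd7, the structural partner of the deubiquitinase, read 7.25, 7.63 and 7.31 on day 0 and 9.53, 9.57 and 9.49 on day 2 in wild type cells. In transgenic cells it read 7.45, 7.86 and 7.52, then 9.56, 9.48 and 9.82. The change of 2.13 ± 0.13 (4.39 times, adjusted p = 1.42e-08) in wild type and 2.01 ± 0.13 (4.03 times, adjusted p = 2.83e-08) in transgenic cells was several times the range within any group. Psmd12 rose by 1.75 ± 0.09 and 1.54 ± 0.09. Psmd14, the deubiquitinase itself, rose by 1.06 ± 0.09 and 1.10 ± 0.09. At the other end Psmd11, a lid scaffold gene, rose by 0.36 ± 0.08 and 0.47 ± 0.08. All 8 lid genes rose in each genotype, with medians of 1.02 and 1.04.

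In wild type cells the median over the 14 core genes without Psma8 was 1.12 and that over the 17 regulatory particle genes 1.06; in transgenic cells they were 1.17 and 1.13. Of the core genes 13 of 14 were called higher in each genotype, and of the regulatory genes 17 of 17. Per array, the median shift of the core genes from their wild type level of day 0 was 1.01 to 1.17 in the wild type arrays of day 2 and 1.13 to 1.26 in the transgenic ones. The same shift of the regulatory genes was 1.06 to 1.11 and 1.06 to 1.08. The ranges of core and regulatory genes overlapped in the wild type arrays and did not in the transgenic ones, where on the deposited values they were 1.32 to 1.39 and 1.26 to 1.30. They were already apart in the transgenic arrays of day 0, before stimulation. There the core genes lay at −0.028 to 0.050 and the regulatory genes at −0.084 to −0.029. On the deposited values these ranges were −0.070 to 0.048 and −0.11 to −0.077. The difference between the particles was not tested.

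The 3 base assembly chaperones, which guide the ATPase ring together and leave the finished particle, were called higher too. Psmd5 changed by 1.19 and 1.07 and Psmd9 by 1.02 and 1.08. Psmd10 rose by 0.26 ± 0.10 in wild type (adjusted p = 0.0343) and by 0.69 ± 0.10 in transgenic cells, and the difference of these changes missed the threshold (0.43 ± 0.14, adjusted p = 0.168). On the deposited values the wild type change of Psmd10 was −0.09 and missed the threshold (adjusted p = 0.43), so its direction rests on the scale, while the transgenic change was 0.30. The wild type call was also lost in 5 of 6 fits without 1 array, all but that without replicate 1 of day 0 (adjusted p 0.0103 to 0.138).

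The activators had the lowest median of the classes on the quantile-normalized values, 0.33 in wild type and 0.65 in transgenic cells. The transgenic median of the base assembly chaperones was lower on the deposited values (0.73 against 0.79) and with array medians subtracted (1.37 against 1.43). Psme1, a subunit of the interferon-inducible PA28 cap, rose by 0.31 ± 0.08 and 0.39 ± 0.08. Psme4, the PA200 activator, rose by 0.33 ± 0.11 and 0.65 ± 0.11. The wild type call of Psme4 was lost without replicate 3 of day 0 (0.24, adjusted p = 0.0753) and without replicate 1 of day 2 (0.31, adjusted p = 0.0544). Psme3, the nuclear PA28 gamma activator, read 8.03, 8.54 and 9.32 in the wild type arrays of day 0 and 10.22, 10.26 and 9.38 on day 2. Its transgenic arrays lay closer together, at 9.05, 9.31 and 9.24, then 10.02, 10.03 and 10.04. Psme3 rose by 1.32 ± 0.28 in wild type and by 0.83 ± 0.28 in transgenic cells. The transgenic call was lost without replicate 1 of day 0 or without any 1 array of day 2, that is in 4 of 6 such fits (adjusted p 0.0373 to 0.07). A second probe set of Psme3 with a smaller spread rose by 1.77 ± 0.08 and 1.45 ± 0.08.

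**Figure D2:**
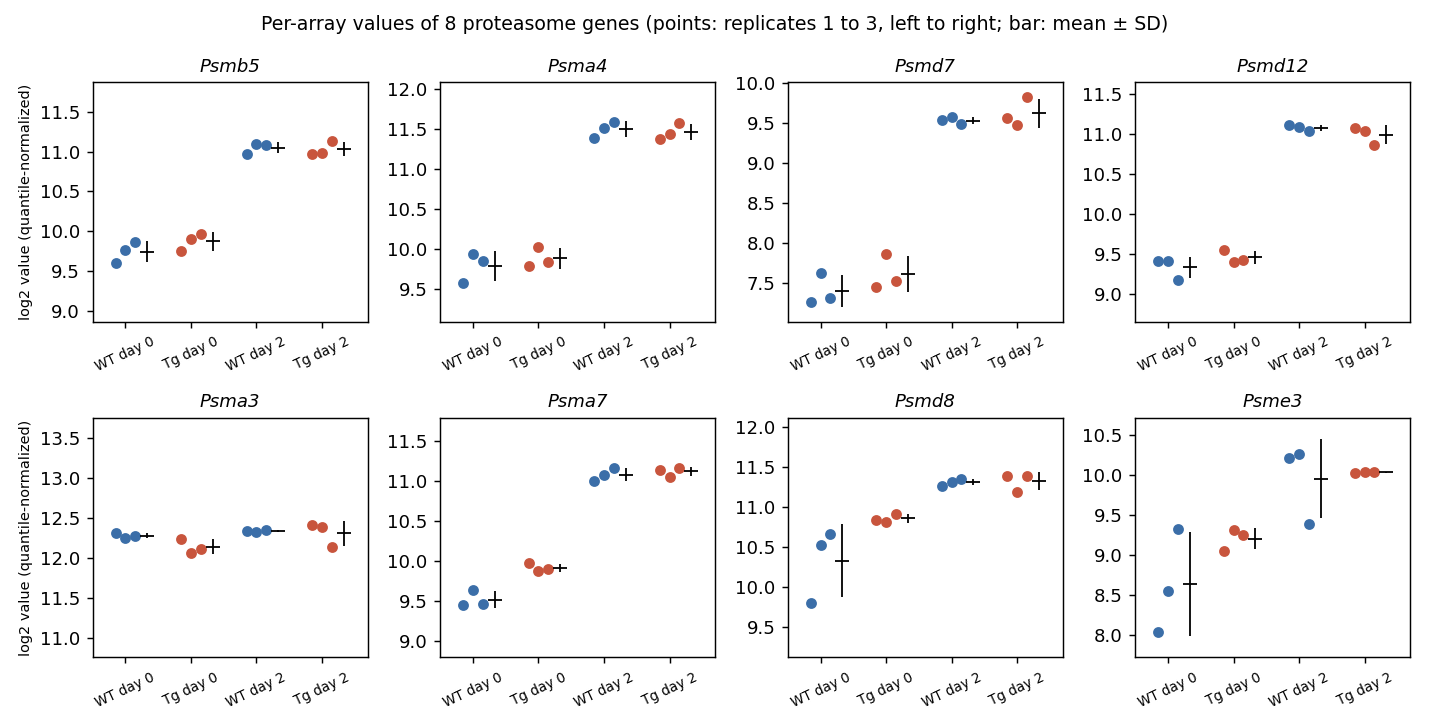
Log2 values (y axis, quantile-normalized) of 8 proteasome genes in the 12 arrays, by group (x axis), with replicates 1 to 3 from left to right and the mean ± SD beside them; each panel spans the same range of 3 log2 units. Within each genotype the arrays of day 2 lie above those of day 0 for Psmb5, Psma4, Psmd7, Psmd12, Psma7, Psmd8 and Psme3. Psma3 changes least, and its transgenic arrays overlap between the days. The days did not overlap for 38 of the 38 genes in wild type and 37 in transgenic cells, against 64.5% and 67.2% of all genes. The wild type arrays of Psme3 spread from 8.03 to 9.32 on day 0.

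The size of the change depends on the scale, since it is relative to the rest of the array. The median over all probe sets was 0.037 and 0.040 on the quantile-normalized values and −0.40 in each genotype on the deposited ones. With the deposited values the medians of the core genes were 1.36 and 1.36 and those of the regulatory genes 1.31 and 1.37. With each array's median subtracted they were 1.98 and 2.00, and 1.93 and 2.01. The direction of these class medians was the same on all 3 scales.

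Counting each probe set rather than each gene, 65 of the 86 were higher and 11 lower in wild type cells, against 30.7% and 26.1% of all probe sets. In transgenic cells 66 were higher and 12 lower, against 30.1% and 25.1%. The falling probe sets, 11 of them in both genotypes and 1 in transgenic cells only, belong to 8 genes, and none is the brightest of its gene. In 6 genes (Psma1, Psma6, Psmc2, Psmd4, Psmd9 and Psme4) one probe set rose and another fell in both genotypes, and Psmd13 joined them in transgenic cells.

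Psma1 had the widest split. Its brightest probe set rose by 1.21 ± 0.09 in wild type cells, from 10.07 to 10.25 on day 0 to 11.32 to 11.43 on day 2. Its 3 other probe sets fell, by 2.07 ± 0.10, by 1.89 ± 0.11 and by 1.34 ± 0.17. The first of these was no dim probe set: its mean of day 2 was still 6.93 ± 0.02 (SD), above the array medians. In transgenic cells the same 3 fell by 1.92, 1.79 and 1.54.

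The other genes showed the same arrangement at smaller size. Psme4 had 3 probe sets that rose in both genotypes and 2 that fell, by 1.19 and 0.94 in wild type. Psmd9 had 1 that fell by 1.48, Psmc2 1 that fell by 0.90, and Psma6 2 that fell by 0.88 and 1.14. The third probe set of Psmd4 fell by 0.45 ± 0.09 and 0.34 ± 0.09. The second probe set of Psma3, 8.49 on day 0 in wild type cells, fell by 1.04 ± 0.18 and 1.51 ± 0.18. The brightest was flat on the quantile-normalized values. On day 2, 8 of the 12 falling probe sets lay below the wild type array median. The files used here do not place these probe sets on the transcripts, and what they measure was not tested.

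**Figure D3:**
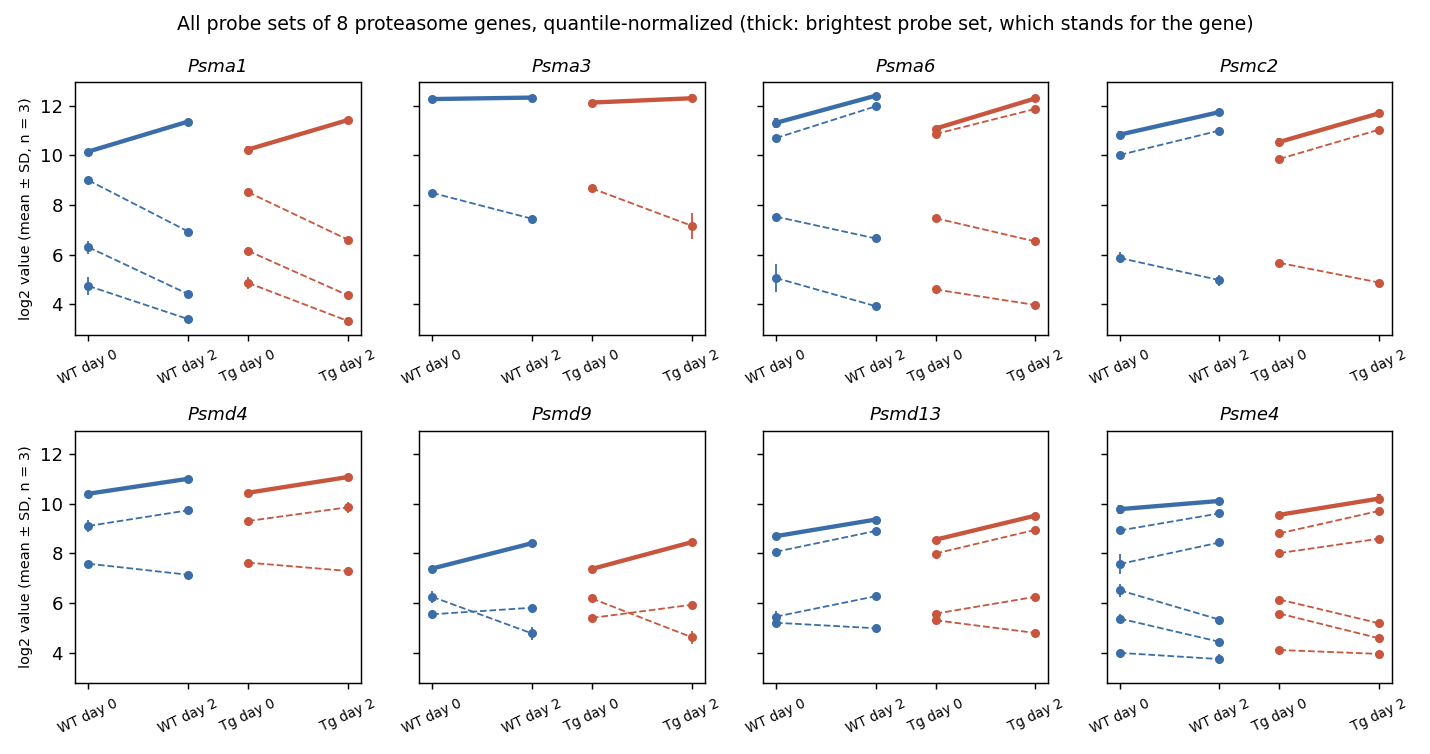
Mean log2 values ± SD (y axis, quantile-normalized, 3 arrays per group) of every probe set of 8 proteasome genes on day 0 and day 2 (x axis) in wild type (blue) and transgenic (red) cells; the thick line is the brightest probe set of the gene. In each panel but that of Psma3 the thick line rises while at least 1 dimmer probe set falls.

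Few differences between the genotypes passed the threshold. At day 0, before stimulation, 1 of the 38 genes, Psma7, was called higher in transgenic cells and 0 were called lower, against 5.45% and 4.90% of all genes. Of the 86 probe sets 2 were higher and 1 lower, against 4.47% and 4.98% of all probe sets; the lower ones were 7 without wild type replicate 3. At an unadjusted p under 0.05, 2 of the 38 genes were higher and 8 lower, against 2428 and 2176 of all 18193 genes. The median difference of the 38 genes was −0.03. It was −0.01 over the 14 core genes without Psma8 and −0.09 over the 17 genes of the regulatory particle, of which 12 had a negative difference. The median of the regulatory genes ran from −0.16 without wild type replicate 3 to −0.0050 without wild type replicate 1, and the difference between the particles was not tested.

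Psma7, an alpha ring gene, read 9.49, 9.63 and 9.41 in wild type and 9.87, 9.81 and 9.79 in transgenic arrays on the deposited values of day 0. Every transgenic array lay above every wild type array. The genotypes did not overlap, in either direction, for 9 of the 38 genes at day 0, against 25.4% of all genes. The difference of Psma7 was 0.31 ± 0.08 (adjusted p = 0.0292). The call was lost in 5 of the 6 fits that leave out 1 array, all but that without wild type replicate 2 (adjusted p 0.0229 to 0.0979), with the array medians subtracted (0.27, adjusted p = 0.0635) and in a fit to the groups of day 0 alone (0.31, adjusted p = 0.0981). Granulocyte, macrophage, erythroid and plasma cell markers were also higher in the transgenic arrays of day 0, and their part in this difference was not tested.

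The other 2 called probe sets are not the brightest of their genes. The second probe set of Psme3 read 8.18, 8.15 and 8.27 in wild type and 8.47, 8.51 and 8.45 in transgenic arrays, a difference of 0.28 ± 0.08 (adjusted p = 0.0368) that was called in 1 of 6 fits without an array, that without wild type replicate 3 (adjusted p 0.0243 to 0.105). The falling probe set of Psma1 was lower, at 8.48 to 8.77 against 8.95 to 9.11, by 0.47 ± 0.10 (adjusted p = 0.00928). The brightest probe set of Psma1 differed by 0.03 ± 0.09.

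Of the genes that missed the threshold at day 0, Psmd8, a lid gene, is given after its values were seen. Its wild type arrays read 9.81, 10.44 and 10.53 and its transgenic arrays 10.69, 10.69 and 10.76, a difference of 0.45 ± 0.15 (adjusted p = 0.0754). The low wild type array, replicate 1, also had the lowest ratio of the 5′ to the 3′ actin control probe sets, −2.22 on the log2 scale against −0.67 to −0.54 in the other arrays of day 0. For Gapdh the ratio was −1.78 against −0.38 to 0.02. On day 2 the lowest actin ratio was −1.36, in wild type replicate 1. Among the wild type arrays of day 0, replicate 1 was also lowest for Psmb2, Psma4, Psmd7 and Psme3 and highest for Psma3. Its median shift was the lowest for the core genes and the highest for the regulatory genes. Without this array the median genotype difference of the regulatory genes at day 0 was −0.005, and their median rise in wild type was 1.14. The genotype difference of Psmd8 at day 0 was not refitted without it. The part of this array in the differences was not otherwise tested. With stimulation Psmd8 rose by 0.98 ± 0.17 in wild type and by 0.46 ± 0.17 in transgenic cells. The transgenic call was lost in 5 of 6 fits without 1 array, all but that without replicate 2 of day 2 (adjusted p 0.0372 to 0.0876).

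On day 2 no proteasome gene and none of the 86 probe sets was called between the genotypes, with limma's smallest adjusted p at 0.581 over the genes and 0.112 over the probe sets. The background of such calls was 1.24% of genes higher and 1.10% lower, and 0.868% and 0.995% of probe sets. At an unadjusted p under 0.05 there was 1 probe set of 86 and 0 of 38 genes. Over the whole array 5001 of 45037 probe sets and 2402 of 18193 genes reached that level. The differences of the 38 genes ran from −0.10 for Psmd12 to 0.21 for Psmb7. For 37 of the 38 genes the 95% interval of the difference lay within 0.5 log2 units of 0 on either side, the exception being Psme3 (up to 0.60). At day 0 this held for 33 of 38, the exceptions being Psmb2, Psmc2, Psmd8, Psme3 and Psme4.

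**Figure D4:**
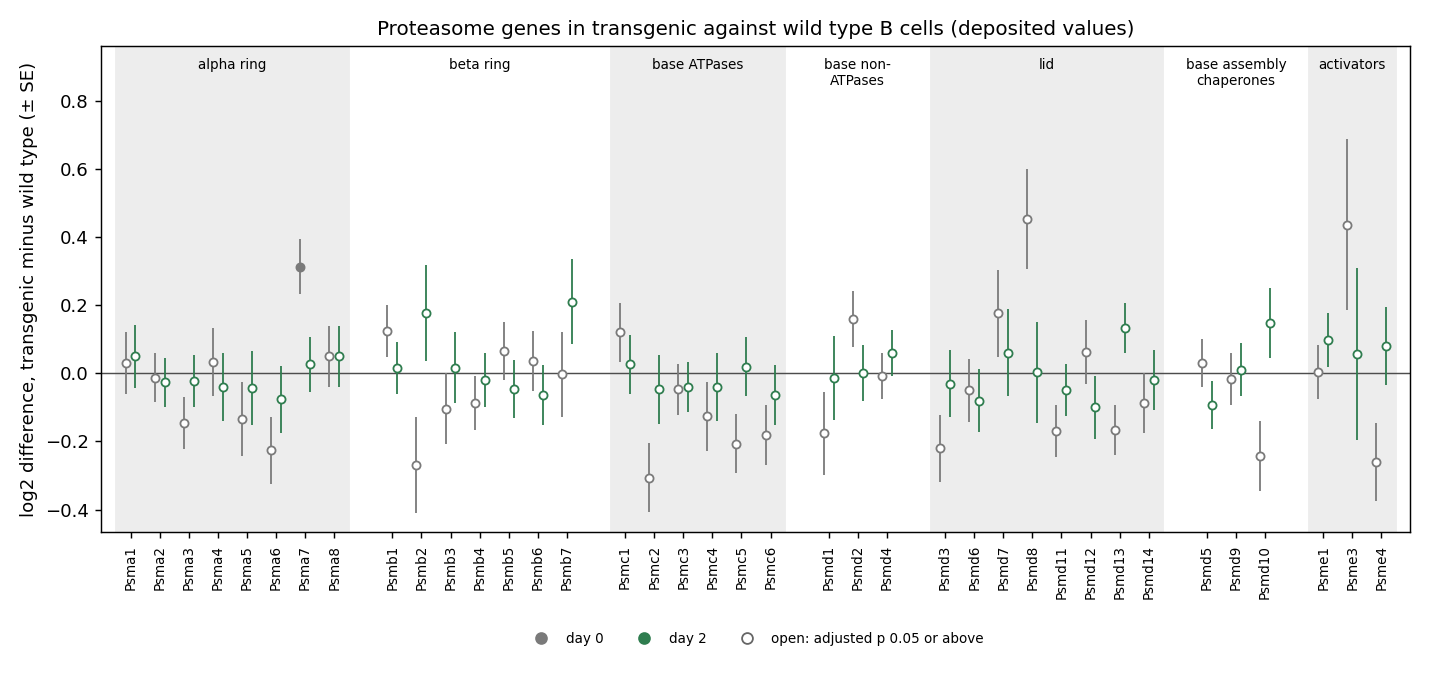
Log2 difference between transgenic and wild type cells (y axis, ± SE, deposited values, 3 arrays per group) of the 38 proteasome genes (x axis) at day 0 (grey) and day 2 (green). The filled circle at 0.31 is Psma7 at day 0, and every other circle is open, with an adjusted p of 0.05 or above.

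The change with stimulation was not shown to differ between the genotypes for any proteasome gene. Of the 86 probe sets 0 passed the threshold for the interaction in either direction (limma, smallest adjusted p = 0.151), against 0.735% higher and 1.05% lower of all probe sets. At an unadjusted p under 0.05 there were 8 of the 86, against 6312 of all 45037 probe sets. The changes of wild type and transgenic cells lay within 0.25 of each other for 31 of the 38 genes and within 0.5 for 37. The largest gap was that of Psmd8, −0.52 ± 0.24 (adjusted p = 0.351). The precision is lower here: the 95% interval lay within 0.5 log2 units of 0 for 27 of the 38 genes.

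Genes that act with the proteasome were read from lists of their own. The shares to set beside the stimulation counts of each list are those of all genes. These were 36.0% higher and 24.0% lower in wild type and 35.2% and 23.3% in transgenic cells. The list of assembly chaperones also held Akirin2. Of its 6 measured genes 5, all but Akirin2, rose in each genotype, with list medians of 1.70 and 1.54. Psmg1 rose by 2.52 ± 0.11 and 2.44 ± 0.11 and Psmg2 by 2.21 ± 0.10 and 1.62 ± 0.10, which together start the alpha ring. Psmg3 rose by 1.94 and 1.61, and Pomp, the maturation protein that helps the core assemble, by 1.46 and 1.47. Psmg1 and, in wild type cells, Psmg2 changed more than any subunit gene. Akirin2, which brings proteasomes into the nucleus, missed the threshold at 0.16 and 0.12 but passed it on the deposited values, at 0.38 and 0.37.

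The immunoproteasome genes encode subunits that replace the catalytic beta subunits. Psmb8, the counterpart of Psmb5, rose by 0.38 ± 0.10 in wild type and 0.57 ± 0.10 in transgenic cells. Psmb9, the counterpart of Psmb6, rose by 0.94 ± 0.11 and 1.13 ± 0.11. Psmb10, the counterpart of Psmb7, changed by 0.18 ± 0.10 in wild type (adjusted p = 0.146; 0.35 and past the threshold on the deposited values) and rose by 0.35 ± 0.10 in transgenic cells. That last call was lost without transgenic replicate 3 of day 2 (0.26, adjusted p = 0.0506). Their changes were below those of Psmb5 and Psmb7 for Psmb8 and Psmb10, while that of Psmb9 matched Psmb6 in transgenic cells, at 1.13 each; these differences were not tested.

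Among 12 measured proteins that bind the proteasome or carry substrates to it, 8 rose and 2 fell in wild type and 8 rose and 3 fell in transgenic cells. The proteasome-bound deubiquitinase genes Usp14 and Uchl5 rose by 1.89 and 1.74 in wild type and by 1.85 and 1.65 in transgenic cells. Zfand5, which stimulates the 26S proteasome, fell by 1.14 ± 0.08 and 0.96 ± 0.08. Of 5 measured genes for a ubiquitin-activating enzyme and for the segregase VCP with its cofactors, 4 rose in wild type and 5 in transgenic cells, Vcp itself by 1.06 and 0.85. Of 7 genes for the loading of peptides on MHC class I, 4 and 5 rose, with the trimming peptidase Erap1 at 1.38 and 1.39.

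The 8 measured regulators of proteasome gene transcription did not move as one group: 3 rose and 3 fell in wild type, and 2 rose and 2 fell in transgenic cells. Over all genes 36.0% rose and 24.0% fell in wild type, and 35.2% and 23.3% in transgenic cells. Nfe2l1, which induces proteasome genes when activity is short, missed the threshold at −0.16 ± 0.08 (adjusted p = 0.102) and 0.07 ± 0.08 (adjusted p = 0.455). Its direction turned with the scale: on the deposited values it was −0.48 and −0.26, past the threshold, and with array medians subtracted 0.14 and 0.38. The small Maf partner gene Maff fell by 2.06 ± 0.09 and 1.66 ± 0.09. Its relative Mafk fell by 1.59 ± 0.09 and 1.01 ± 0.09, while Mafg missed the threshold at 0.05 and −0.07 and fell by 0.36 and 0.51 on the deposited values. Keap1, the adaptor that marks Nfe2l2 for degradation, rose by 0.86 and 1.25.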

How the data were processed

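The deposited log2 values of the 12 Affymetrix arrays were used as given; RMA and affy are named, without versions, per the submitters' processing notes. No source used here says whether all arrays were normalized in 1 run. The 64 array controls were left out. Of 45037 probe sets, 34945 carried 1 gene symbol, 932 several and 9160 none in the platform annotation, and 34741 were updated through a RefSeq table.

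Contrasts were tested with limma 3.58.1 under R 4.3.3 (1 coefficient per group, 12 arrays, constant prior, 2-sided, Benjamini-Hochberg adjustment over all probe sets). Genotype contrasts used the deposited values, and stimulation contrasts and the interaction values quantile-normalized over the 12 arrays. Precision is limited by the number of arrays. The fit was also run on simulated data with independent noise and 200 changed probe sets. With stimulation 13813 probe sets were called higher and 11748 lower in wild type cells. The simulation therefore does not show how the fit performs on these contrasts.

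The members, lists and tests were chosen with earlier results of these data known, so no list is independent evidence. Named are fixed core, receptor and activator genes, the largest and smallest stimulation changes of each class, all called genotype differences, genes with opposed probe sets, and up to 3 called genes of each related list. Other named genes, among them Psmd8, Pomp, Akirin2, Zfand5, Nfe2l1 and Mafg, fall outside this rule and were chosen with their values known. Pomp, Akirin2, Zfand5, Nfe2l1 and Mafg were not refitted with arrays left out.

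Same-numbered replicates deviated together (every correlation of deviations over 0.1) between wild type day 0 and day 2 (0.32, 0.18 and 0.19) and between the genotypes on day 2 (0.33, 0.10 and 0.18), not in the other 4 pairs of groups. The labels name no pairing, and the replicate number as a block is an alternative, beside other normalizations, an intensity trend, a filter on dim probe sets, fits to 2 groups alone and leaving out each array.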

Additional observations from a re-analysis of the deposited data

Results flagged for a closer look

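The fall of Mafk with stimulation passed the threshold for a difference between the genotypes on the quantile-normalized values: it fell by 1.59 ± 0.09 in wild type and by 1.01 ± 0.09 in transgenic cells, a difference of 0.58 ± 0.13 by the interaction term (limma adjusted p = 0.0441). The call was lost on the deposited values (0.53, adjusted p = 0.0549), with array medians subtracted (0.55, adjusted p = 0.0544) and in 11 of 12 fits without 1 array (adjusted p 0.0265 to 0.117). It was also 0.63 ± 0.09 lower in transgenic cells at day 0 (adjusted p = 0.000652) and −0.10 apart on day 2. No proteasome gene met this criterion. Groups of 3 arrays are too small for the search for single outlying arrays.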

How the results depend on the processing

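Of the 76 changes of the 38 proteasome genes with LPS and IL-4 in 2 genotypes, 68 kept their direction and call under every alternative run. The other 8 are those of Psma3 and Psma8 in both genotypes, Psmd10 and Psme4 in wild type, and Psme3 and Psmd8 in transgenic cells. On the deposited values Psma8 reversed to −0.193 in each genotype, Psmd10 to −0.09 in wild type, and so did Psmb11, the thymus subunit, in transgenic cells (0.44 to −0.13). In wild type cells 11 falling member probe sets became 20 on the deposited values and 5 with dim probe sets left out. In transgenic cells 12 became 19 and 5. The array medians of day 2 are lower on the deposited values, and their part in the first change was not tested. The filter on dim probe sets leaves fewer probe sets to count. Leaving out 1 array gave 61 to 64 higher and 11 to 12 lower in wild type and 62 to 64 higher and 11 to 12 lower in transgenic cells. With the replicate block the counts were 65 and 12, and 66 and 12.

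The calls at day 0 were fragile. The 2 higher probe sets became 0 with array medians subtracted and 0 in the fit to the groups of day 0 alone, and ran from 0 to 3 over the leave-outs; the cause was not tested. The 1 lower probe set became 2 with the replicate block and 0 in the fit to the groups of day 0 alone, and ran from 1 to 7, with 7 without wild type replicate 3. Of related genes called between genotypes at day 0, Keap1 (−0.32) lost its call in 6 of 6 leave-outs (adjusted p 0.0607 to 0.16), Psmf1 (0.27) and Calr (0.27) in 5 and Tap1 (−0.32) in 3; Nfe2l2 on day 2 lost it in 4. On day 2 and for the interaction the count of called members was 0 under every alternative, the block included.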

Other observations

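Psmc3ip, which shares the start of its symbol with the ATPase genes but acts in homologous recombination, rose by 1.77 ± 0.17 in wild type and 1.99 ± 0.17 in transgenic cells, beyond every Psmc gene of the base. Psme3ip1 rose by 0.41 and 0.37. Of the regulators, Nfe2l2 was 0.40 ± 0.07 lower in transgenic cells on day 2 (adjusted p = 0.0137), a call that 4 of 6 fits without 1 array lost, and Maff was 0.45 ± 0.09 lower at day 0 (adjusted p = 0.00571). Ubqln4, a shuttle factor gene, was 0.52 ± 0.12 lower at day 0 (adjusted p = 0.0145), a call lost without transgenic replicate 1 and in the fit to 2 groups. Psmf1, an inhibitor of the core particle, rose by 0.98 and 0.70 with stimulation and was 0.27 ± 0.08 higher in transgenic cells at day 0 (adjusted p = 0.049), a call lost in 5 of 6 fits without 1 array, with the replicate block (adjusted p = 0.0653), with array medians subtracted (0.0895), with an intensity trend (0.068) and in the fit to 2 groups (0.142).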
